A study of Mus musculus with 4 samples.

Results

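The genes described here are 6 genes known for their induction by interferon, most of them coding for proteins of cell membranes: Bst2, Ifitm1, Ifitm2, Ifitm3, Rtp4 and Ifi27. They were found by symbol, through GENCODE M21, among the 34866 gene identifiers of a count table, and all 6 were among the 14050 genes with enough reads to be tested. The members were chosen by their measured difference between sh3F and shControl as well as by their kind, so their levels and fold changes are given as a description and carry no test. The RNA came from neural stem and progenitor cells (NSPCs) isolated from dorsal telencephalon of the mouse, the origin of the cerebral cortex, taken at E11.5 and grown for 5 days as neurospheres, floating balls of cells, with basic fibroblast growth factor (bFGF). The knockdown group, sh3F, received 3 lentiviral vectors together: a hairpin RNA against Phf21b in pCS-EG and hairpins against Zfp7 and Zfp57 in pLV-EG, each at 10 infectious units per cell. The shControl group, labelled wild type, received 1 vector, CS-EG with a control hairpin, at 30 units per cell. In the genotype label of the sh3F libraries, Phf21b and Zfp7 are spelled Phf21 and Sfp7. Every cell population was thus virus-treated, and the number of vectors and their backbone cannot be told apart from the knockdown.

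Each group had 2 libraries, which share 1 batch label, and held 15170491 to 17901386 estimated counts in sh3F and 14694387 to 20779211 in shControl. Levels are in CPM, the estimated count relative to the library total after scaling by TMM factors; with 2 libraries a group, an SD rests on 2 values. The labels do not tell whether replicates were separate cultures, so p-values measure the spread between these libraries, which may be technical. None of the targeted mRNAs passed the threshold, an adjusted p of 0.05 in edgeR's quasi-likelihood test over all tested genes. Zfp57 stood at 10.0 ± 0.988 CPM in sh3F and 13.2 ± 1.97 CPM in shControl (log2 fold change -0.40, adjusted p = 0.341), Phf21b at 5.97 ± 0.678 CPM in sh3F and 7.30 ± 0.0823 CPM in shControl (-0.29, adjusted p = 0.644), and Zfp7 at 1.47 ± 0.704 CPM in sh3F and 1.96 ± 0.411 CPM in shControl (-0.37, adjusted p = 0.80). Progenitor markers were present in both groups, Sox2 at 49.997 and 55.6 CPM in sh3F and 66.9 and 62.1 CPM in shControl. Of the 10 progenitor markers, 5 stood below both shControl libraries in both sh3F libraries, and their median log2 fold change was -0.23; edgeR and DESeq2 called 0, with 0 higher and 3 lower at an unadjusted p under 0.05. The part of these cells in the members' values was not tested. Over the whole table, 192 genes (1.37%) passed the threshold, 76 higher in sh3F (0.541%) and 116 lower (0.826%), and the median log2 fold change of all tested genes was -0.01. At an unadjusted p under 0.05, 722 genes were higher (5.14%) and 963 lower (6.85%), and 48.9% of tested genes had a log2 fold change above 0. Without TMM factors, 77 were higher and 28 lower. The counts moved with single libraries: 27 higher and 17 lower without sh3F replicate 1, 36 and 27 without sh3F replicate 2, 112 and 184 without shControl replicate 1, and 280 and 334 without shControl replicate 2.

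Interferons are secreted proteins that bind receptors on the cell surface and, through JAK kinases, activate transcription factors of the STAT family; with IRF9 these form the complex ISGF3, which binds the interferon-stimulated response element (ISRE) in promoters. Many of the genes so induced hinder viruses at a membrane: Bst2 (tetherin) holds budding virus particles on the cell surface, and the Ifitm proteins hinder the fusion of incoming viruses with cell membranes. Some Ifitm genes are also known to be expressed in stem cells without interferon.

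Promoter sequences are shown first, and those of the 3 Ifitm genes can be read against one another. A link between these letters and the members' levels was not tested. By symbol, 4 of the 6 members matched the table of RefSeq promoters (GRCm38.p6), and Rtp4 and Ifi27 are named only. Each stretch runs 5′ to 3′ in the direction of transcription, from 150 bases before the RefSeq start to 30 bases after it, and capitals mark the ISRE core, which reads GAAA, then 2 bases of any kind, then GAAA. The stretches are Bst2 at chr8:71537443-71537622, minus strand; Ifitm3 at chr7:141010715-141010894, minus strand; Ifitm2 at chr7:140955932-140956111, minus strand; and Ifitm1 at chr7:140967926-140968105, plus strand.
Bst2: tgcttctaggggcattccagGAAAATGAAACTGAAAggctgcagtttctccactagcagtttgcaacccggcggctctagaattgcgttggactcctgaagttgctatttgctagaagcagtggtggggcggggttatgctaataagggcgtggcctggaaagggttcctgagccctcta
Ifitm3: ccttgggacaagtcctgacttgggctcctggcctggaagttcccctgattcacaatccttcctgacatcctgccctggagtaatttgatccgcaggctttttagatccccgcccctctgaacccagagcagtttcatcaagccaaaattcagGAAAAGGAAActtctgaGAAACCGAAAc
Ifitm2: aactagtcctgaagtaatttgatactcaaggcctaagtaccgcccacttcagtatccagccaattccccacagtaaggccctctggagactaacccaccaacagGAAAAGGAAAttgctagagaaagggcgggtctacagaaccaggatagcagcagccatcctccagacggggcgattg
Ifitm1: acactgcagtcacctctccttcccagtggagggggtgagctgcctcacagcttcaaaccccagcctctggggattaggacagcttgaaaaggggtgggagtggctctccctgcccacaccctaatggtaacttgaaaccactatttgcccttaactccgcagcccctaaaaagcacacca

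The ISRE core was searched on both strands of the full window, 250 bases before to 50 after the start. Matches were found in 3 of the 4 windows, against 1131 of all 32851 windows in the table (3.44%). Bst2 had a pair of overlapping matches at -130 to -121 (GAAAATGAAA) and -124 to -115 (GAAACTGAAA), counted from the start. Ifitm3 had a match at 3 to 12 (GAAAAGGAAA) and another at 20 to 29 (GAAACCGAAA), both after the RefSeq start. Ifitm2 had 1 match, at -46 to -37, with the same letters as the first of Ifitm3 (GAAAAGGAAA). The letters of the core did not occur in the window of Ifitm1. The GAS element TTCNNNGAA, a sequence bound by proteins of the STAT family, was found in the windows of Bst2 at -136 to -128 and Ifitm3 at 14 to 22, in each case overlapping an ISRE core, and in 2726 of all windows (8.30%). The hexamer TGCCGC, the methylated motif that Zfp57 is known to bind, was found in the window of Ifitm3 alone among the 4, at 31 to 36, and in 3813 of all windows (11.6%). Annotated starts differ: that of GENCODE lies 26 bases upstream of the RefSeq start for Ifitm3 and for Ifitm2, 855 bases upstream for Ifitm1, and 16 bases downstream for Bst2. A match describes the letters and is not a measured site.

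**Figure D1:**
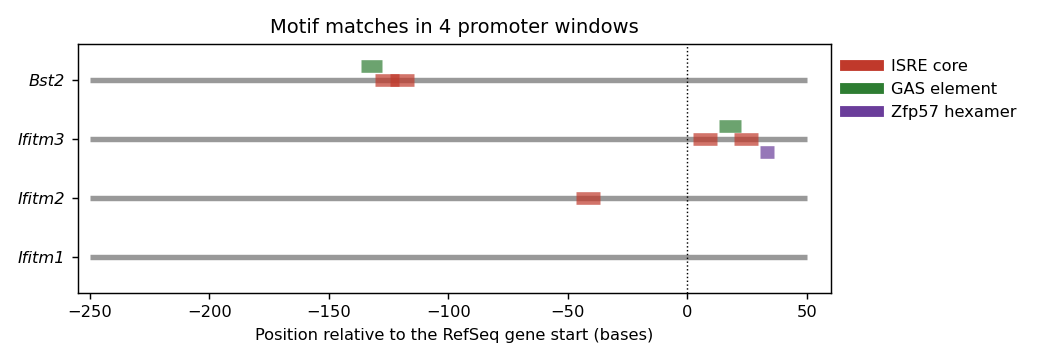
Positions of motif matches in the promoter windows of 4 members, in bases from the RefSeq start on the horizontal axis, with 1 row per gene. ISRE core matches appear for Bst2, Ifitm3 and Ifitm2, and the row of Ifitm1 holds none.

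In both sh3F libraries Bst2, Ifitm3, Rtp4 and Ifi27 stood above both shControl libraries, Ifitm2 stood below them, and Ifitm1 overlapped. Of all tested genes, 19.6% lay above in both sh3F libraries and 21.7% below, and since the contrast chose the members, nothing is read from their counts. The members' log2 fold changes ran from -0.39 to 3.16 with a median of 1.91. In a whole culture, a change in the number of cells that express a gene and a change in RNA per cell cannot be told apart.

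**Figure D2:**
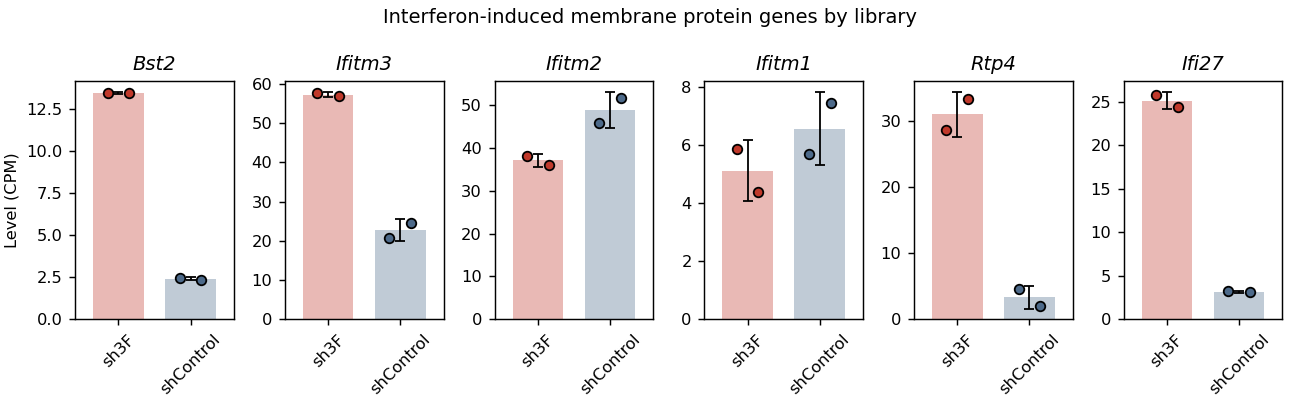
Level of each member in CPM, 1 panel per gene with its own linear axis from 0 and sh3F left of shControl; points are libraries, bars are group means and whiskers are SDs. Bst2, Ifitm3, Rtp4 and Ifi27 are higher in both sh3F libraries, Ifitm2 is lower, and Ifitm1 overlaps.

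Bst2 (ENSMUSG00000046718.8; GRCm38 chromosome 8, 71534255 to 71537456, minus strand) codes for a surface protein held by a transmembrane stretch at one end and a lipid anchor at the other. Its estimated counts were 252 and 207 in sh3F, against 53 and 31 in shControl. The levels were 13.4 and 13.5 CPM in sh3F and 2.46 and 2.33 CPM in shControl. Each pair of replicates was close together and the groups lay far apart: the lowest sh3F value was 5.46 times the highest shControl value. Means were 13.5 ± 0.0378 CPM in sh3F and 2.40 ± 0.0940 CPM in shControl, a log2 fold change of 2.48 (SE 0.23), or 5.58-fold. None of the 31-base stretches of its transcripts occurred in another annotated gene.

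Rtp4 (ENSMUSG00000033355.6; chromosome 16, 23520291 to 23614222, plus strand) codes for a zinc-finger chaperone that helps G protein-coupled receptors to the cell surface. Over all 4 libraries it showed the highest fold change of the 6, with counts of 538 and 513 in sh3F and 98 and 27 in shControl. Levels were 28.7 and 33.4 CPM in sh3F and 4.55 and 2.03 CPM in shControl. The shControl libraries differed from each other 2.24 times, more than those of any other member, and the lowest sh3F value was still 6.30 times the highest shControl value. Means were 31.05 ± 3.35 CPM in sh3F and 3.29 ± 1.78 CPM in shControl, a log2 fold change of 3.16 (SE 0.21), or 8.91-fold. Without shControl replicate 1 the log2 fold change was 3.93, and without shControl replicate 2 it was 2.78, below the 2.98 of Ifi27 in the same fit. Of its 31-base stretches 12.5% occurred in other genes, and 13.9% of its exonic bases overlap the annotated gene Gm45338 on the same strand, not analysed here.

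Ifi27 (ENSMUSG00000064215.13; chromosome 12, 103434211 to 103440239, plus strand) codes for a small, hydrophobic protein reported in mitochondrial and nuclear membranes. Its counts were 484 and 375 in sh3F, against 69 and 41 in shControl, which gave 25.8 and 24.4 CPM in sh3F and 3.205 and 3.08 CPM in shControl. The groups were apart by more than in any other member when the nearest libraries are compared, the lowest sh3F value being 7.62 times the highest shControl value. Means were 25.1 ± 0.967 CPM in sh3F and 3.14 ± 0.0882 CPM in shControl, a log2 fold change of 2.99 (SE 0.20), or 7.96-fold. No 31-base stretch of its transcripts occurred in another gene.

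The 3 Ifitm genes lie together on chromosome 7, with the starts of Ifitm1 and Ifitm2 43.5 and 54.8 kb from that of Ifitm3. They code for small membrane proteins of similar sequence: the coding sequence of Ifitm3 was identical at 81.4% of aligned positions to that of Ifitm2 and at 82.7% to that of Ifitm1. Gaps are not counted in these shares, 27 positions against Ifitm2 and 93 against Ifitm1, so the shares do not rank the 2 genes. Ifitm3 acts mainly in endosomes and lysosomes, and Ifitm1 mainly at the cell surface.

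Ifitm3 (ENSMUSG00000025492.6; 141009586 to 141010770, minus strand) had counts of 1082 and 872 in sh3F and 448 and 328 in shControl. Its levels were 57.7 and 56.8 CPM in sh3F and 20.81 and 24.6 CPM in shControl. The groups did not overlap, and the lowest sh3F value was 2.31 times the highest shControl value. Means were 57.2 ± 0.611 CPM in sh3F and 22.7 ± 2.71 CPM in shControl, a log2 fold change of 1.34 (SE 0.15), or 2.53-fold.

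Ifitm2 (ENSMUSG00000060591.9; 140954837 to 140955987, minus strand) went the other way, with counts of 718 and 555 in sh3F and 988 and 690 in shControl. Levels were 38.3 and 36.2 CPM in sh3F and 45.9 and 51.8 CPM in shControl. Both sh3F libraries were lower, without overlap, by a small margin. The mean was 37.2 ± 1.49 CPM in sh3F, 76.3% of the 48.9 ± 4.20 CPM in shControl (log2 fold change -0.39, SE 0.14).

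Ifitm1 (ENSMUSG00000025491.14; 140967221 to 140969825, plus strand) was the least abundant of the 3 genes, with counts of 110 and 67 in sh3F and 122 and 99 in shControl. It stood at 5.86 and 4.36 CPM in sh3F and 5.67 and 7.44 CPM in shControl, and the groups overlapped. Means were 5.11 ± 1.06 CPM in sh3F and 6.55 ± 1.25 CPM in shControl (log2 fold change -0.33, SE 0.23).

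The make-up of Ifitm RNA therefore differed more than its total. Summed over the 3 genes, the level was 101.8 and 97.3 CPM in sh3F and 72.4 and 83.9 CPM in shControl. Ifitm3 made up 56.6% and 58.4% of that sum in sh3F, against 28.8% and 29.4% in shControl. The share of Ifitm2 was 37.6% and 37.1% in sh3F, against 63.4% and 61.8% in shControl. Ifitm1 held 5.76% and 4.48% in sh3F and 7.83% and 8.86% in shControl. Ifitm3 was thus the leading gene of the 3 in sh3F libraries, and Ifitm2 in shControl libraries. Fitted as 1 summed feature, the 3 genes had a log2 fold change of 0.35.

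**Figure D3:**
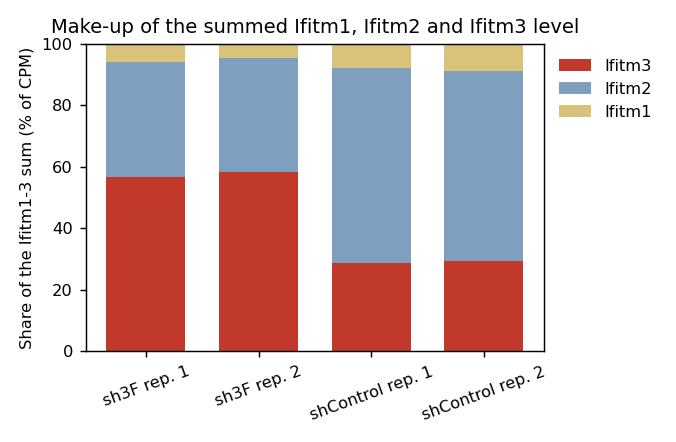
Share of the summed CPM of Ifitm1, Ifitm2 and Ifitm3 taken by each gene, in percent, with 1 bar per library and sh3F left of shControl. Ifitm3 takes 56.6% and 58.4% in sh3F and 28.8% and 29.4% in shControl.

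These genes share sequence, and reads from shared stretches are apportioned by a model in the quantifier, so the split is uncertain. Of the 31-base stretches, 55.5% of those of Ifitm2, 20.5% of those of Ifitm3 and 11.6% of those of Ifitm1 occurred in another gene. Between the members themselves less was shared: Ifitm2 had in common 6.24% of its stretches with Ifitm3, 1.6% with Ifitm1 and 38.1% with Gm45717, an annotated gene that overlaps its exons on the same strand. The 9 other genes in the table that shared sequence with Ifitm1, Ifitm2 or Ifitm3, 7 of them pseudogenes, summed to between 0.261 and 0.586 CPM in a library.

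Per kilobase of the longest annotated transcript, the level of Ifitm3 was the highest in sh3F, at 84.4 ± 0.901 CPM per kb, followed by Ifitm2 at 56.8 ± 2.28 and Ifi27 at 25.7 ± 0.990 CPM per kb. Next came Bst2 at 17.0 ± 0.0477 and Rtp4 at 16.7 ± 1.80 CPM per kb, whose libraries overlapped, and last Ifitm1 at 5.80 ± 1.20 CPM per kb. In shControl the order was Ifitm2 at 74.6 ± 6.42, Ifitm3 at 33.5 ± 3.997, Ifitm1 at 7.43 ± 1.42, Ifi27 at 3.22 ± 0.0903, Bst2 at 3.02 ± 0.119 and Rtp4 at 1.77 ± 0.960 CPM per kb. Ifi27 and Bst2 were close there, at 3.28 and 3.15 CPM per kb for Ifi27 and 3.11 and 2.94 for Bst2. Lengths of the transcripts in use were not given, so neighbours in these orders are approximate. Against all tested genes by CPM, Bst2, Rtp4 and Ifi27 stood above 70.6%, 84.7% and 81.9% of genes in sh3F, and above 26.04%, 33.2% and 31.8% in shControl. Ifitm1 and Ifitm2 stood close to the same place in both groups, above 45.1% and 86.5% of genes in sh3F and above 51.3% and 88.8% in shControl, and Ifitm3 stood above 90.1% in sh3F and 80.1% in shControl. All 6 genes together held 169.7 and 168.7 CPM in sh3F and 82.6 and 91.3 CPM in shControl.

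No tested gene of the same protein families passed the threshold. Of 12 relatives of the Ifitm genes in the dispanin (CD225) family, 6 had enough reads to be tested. Ifitm5, Ifitm6, Ifitm7 and Ifitm10 did not, so no other Ifitm gene was tested. Of the 6, edgeR and DESeq2 called 0 in either direction, and 1 had an unadjusted p under 0.05. That gene was Prrt2, a presynaptic membrane protein, at 1.08 ± 0.402 CPM in sh3F and 2.29 ± 0.0485 CPM in shControl (log2 fold change -1.10, edgeR adjusted p = 0.199), and 87.4% of its 31-base stretches occurred in other genes. The log2 fold changes of Tmem91, Trarg1, Prrt1, Syndig1 and Syndig1l were 0.41, 0.43, -0.15, 0.13 and 0.03. Of 5 relatives of Rtp4 and Ifi27, 2 were tested and 0 were called by edgeR or DESeq2; 1 had an unadjusted p under 0.05. It was Ifi27l2a, whose lowest coordinate lies 7.96 kb from that of Ifi27, with counts of 37 and 29 in sh3F and 11 and 12 in shControl. Its means were 1.93 ± 0.0586 CPM in sh3F and 0.706 ± 0.276 CPM in shControl (log2 fold change 1.503, SE 0.48, edgeR adjusted p = 0.0981). Without shControl replicate 2, Ifi27l2a passed the threshold, with a log2 fold change of 1.92 and an adjusted p of 0.0347. Rtp3, the other tested relative, stood at 2.203 ± 1.18 CPM in sh3F and 1.96 ± 0.940 CPM in shControl and overlapped between the groups.

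Genes for proteins known to work with the members did not pass the threshold. Of 10 tested genes for partners and modifying enzymes, edgeR and DESeq2 each called 0, and 1 had an unadjusted p under 0.05. That gene was Zmpste24, a membrane protease known to cooperate with Ifitm proteins, at 15.1 ± 1.55 CPM in sh3F and 9.69 ± 1.597 CPM in shControl (log2 fold change 0.62, edgeR adjusted p = 0.0639). It passed the threshold without shControl replicate 1, at a log2 fold change of 0.81 (adjusted p = 0.00783). Nedd4, a ubiquitin ligase that marks Ifitm3 for breakdown, stood at 87.9 ± 0.799 CPM in sh3F and 105.2 ± 9.03 CPM in shControl (adjusted p = 0.437). Vapa, a protein of the endoplasmic reticulum that binds Ifitm3, had a log2 fold change of -0.17 (adjusted p = 0.672).

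Interferon mRNAs themselves were barely detected. None of the 21 listed ligand genes had enough reads to be tested, 15 of them were at 0 in every library, and the 21 summed to 7 and 1 estimated counts in sh3F and 7 and 2 in shControl. Ifnb1, the beta interferon, had 2 and 1 counts in sh3F and 0 and 0 in shControl. A count of 0 allows a level of up to 0.139 CPM in shControl replicate 1 and 0.225 CPM in shControl replicate 2, from counting error alone, so a difference in Ifnb1 was not detectable at this depth.

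Among receptors and JAK-STAT genes, 1 of 12 tested genes rose and 0 fell in edgeR, with 2 and 0 at an unadjusted p under 0.05, and the median of the 12 log2 fold changes was -0.00, against -0.01 over all tested genes. The gene that rose was Irf9, the DNA-binding subunit of ISGF3, at 6.56 and 5.93 CPM in sh3F and 2.55 and 1.95 CPM in shControl, without overlap (log2 fold change 1.44, SE 0.26, edgeR adjusted p = 0.000226).

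Of 4 tested interferon regulatory factors other than Irf9, edgeR and DESeq2 called 0, and 0 had an unadjusted p under 0.05. Irf3, the most abundant, stood at 11.4 ± 1.12 CPM in sh3F and 13.4 ± 1.73 CPM in shControl. The log2 fold changes of Irf2 and Irf1 were -0.42 and -0.37, and the median of the 4 tested genes was -0.40. Irf7, also on the list, had too few reads to be tested. Its means were 0.432 CPM in sh3F and 0.0376 CPM in shControl, levels of a few reads for which no fold change was fitted.

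Of 7 tested inhibitors of interferon signalling, 1 rose and 0 fell in edgeR, with 2 and 1 at an unadjusted p under 0.05. That gene was Usp18, which removes Isg15 from proteins and dampens the type I receptor. Usp18 had counts of 42 and 48 in sh3F and 4 and 2 in shControl (log2 fold change 3.90, SE 0.57, edgeR adjusted p = 9.66e-07). This fold change exceeded that of every member, at a far lower level: 2.68 ± 0.628 CPM in sh3F and 0.168 ± 0.0251 CPM in shControl.

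Among other interferon-induced genes, those past the threshold were on the list named soluble proteins and not on the list named other membrane proteins. No test was made between the 2 lists. Their names are a rough sorting, so no contrast between soluble and membrane proteins is read. Both lists were chosen with earlier results of these data known, so their counts are given as a description. Of 30 tested genes on the list named soluble proteins, 5 rose (against 0.541% of all tested genes) and 0 fell. A log2 fold change above 0 was seen in 25 of them (48.9% of all tested genes had one), with a list median of 0.52. DESeq2 called 3 of them higher, and at an unadjusted p under 0.05 the edgeR counts were 12 higher (5.14% of all tested genes) and 0 lower. Isg15, a ubiquitin-like protein attached to other proteins, stood at 5.81 and 4.23 CPM in sh3F and 0.882 and 0.826 CPM in shControl (log2 fold change 2.54, SE 0.35, edgeR adjusted p = 1.76e-07). Mx2, of a family of dynamin-like antiviral GTPases and annotated in M21 as a polymorphic pseudogene, reached 2.51 ± 0.599 CPM in sh3F and 0.374 ± 0.00286 CPM in shControl (2.73, edgeR adjusted p = 0.000183). Gbp3, a guanylate-binding protein, reached 2.43 ± 0.486 CPM in sh3F and 0.477 ± 0.281 CPM in shControl (2.44, edgeR adjusted p = 0.00117). Irgm1, an immunity-related GTPase, reached 3.54 ± 0.708 CPM in sh3F and 1.10 ± 0.282 CPM in shControl (1.63, edgeR adjusted p = 0.00488). Oas1b, of the oligoadenylate synthetase family, was the fifth (2.65, edgeR adjusted p = 0.0172). Ifi44, also on this list, did not pass (1.97, edgeR adjusted p = 0.0503). In edgeR it passed when scaled by library size alone (0.0445), without a filter on low counts (0.048) and at 1 CPM in 2 libraries (0.0464). Gbp3 and Oas1b belong to families of similar genes, so their reads may be split unevenly. Without sh3F replicate 1 the list had 2 genes past the threshold, and Mx2, Gbp3 and Oas1b did not pass (adjusted p = 0.173, 0.277 and 0.609); without sh3F replicate 2 it had 3, and Irgm1 and Oas1b did not pass (0.251 and 0.207). Without shControl replicate 1, Gbp3 and Oas1b did not pass (0.0513 and 0.315), while Trim21, an antibody receptor in the cytosol, did (0.033).

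Of 16 tested genes on the list named other membrane proteins, edgeR called 0 in either direction and DESeq2 called 0 higher. At an unadjusted p under 0.05, 1 was higher and 1 lower. The 16 log2 fold changes had a median of 0.21. B2m, the light chain of MHC class I molecules, was the most abundant, at 215 ± 17.5 CPM in sh3F and 206 ± 20.1 CPM in shControl (log2 fold change 0.06, edgeR adjusted p = 0.918). Ly6e, a lipid-anchored surface protein, stood at 17.5 ± 1.87 CPM in sh3F and 16.2 ± 2.83 CPM in shControl (0.11, edgeR adjusted p = 0.872). The libraries of both genes overlapped between the groups.

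**Figure D4:**
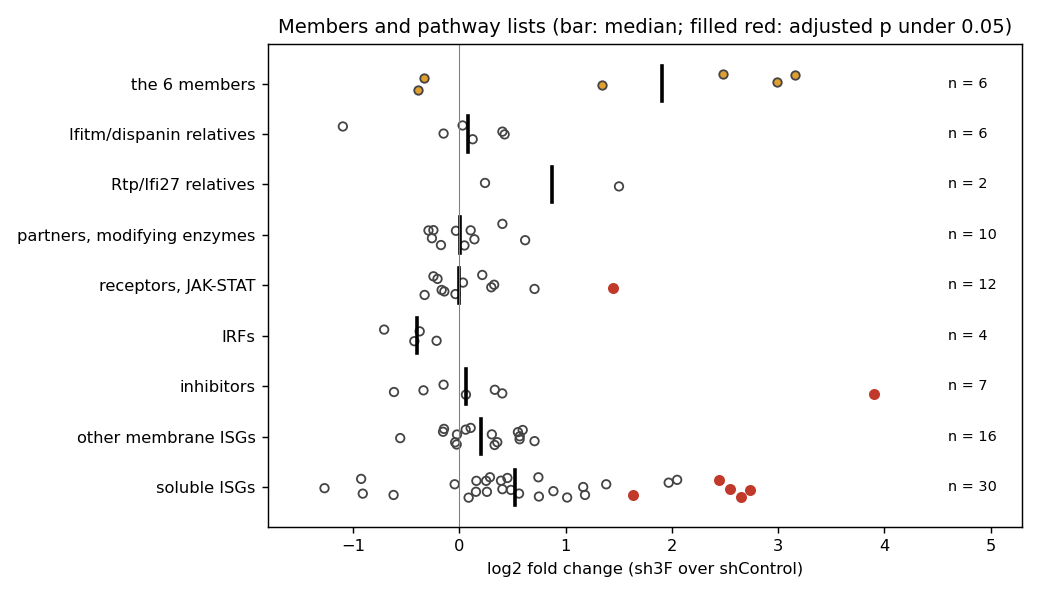
Log2 fold change of sh3F over shControl for every tested gene of the members and the pathway lists, 1 row per list and 1 point per gene, with black bars for medians, IRFs for regulatory factors and ISGs for interferon-induced genes; list genes past the threshold are red, and the members, in yellow, carry no test. Irf9, Usp18 and 5 genes of the list named soluble proteins are red and to the right of 0. No gene of the family, partner, regulatory-factor or other membrane lists is red.

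The ISRE core was also counted in the promoters of these lists, which were chosen with earlier results of these data known. Both lists of interferon-induced genes together held 46 tested genes, 38 of them with a RefSeq window. Mx2 and Oas1b rose but had no window, so they are not counted here. Among the 13 with a match, 3 rose (Isg15, Gbp3 and Irgm1) and the median log2 fold change was 0.60. DESeq2 called 2 of the 13 higher, and 6 were higher and 0 lower at an unadjusted p under 0.05. Among the 25 without a match, edgeR and DESeq2 called 0 higher, 3 were higher and 1 lower at an unadjusted p under 0.05, and the median was 0.16. Over all tested genes with a window, members left out, 7 of 387 with a match rose (1.81%) and 2 fell, against 29 (0.285%) and 78 of 10169 without one. DESeq2 called 3 higher among those with a match and 11 among those without. At an unadjusted p under 0.05, genes with a match were 31 higher and 31 lower, and those without one 448 higher and 698 lower. The median log2 fold change was 0.02 with a match and -0.02 without.

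Genes beside the members on the chromosome showed no difference past the threshold. Of 24 tested protein-coding neighbours, up to 3 on each side of each member, edgeR and DESeq2 called 0, and 3 had an unadjusted p under 0.05; their log2 fold changes ran from -1.08 (Bcl6, near Rtp4) to 1.503 (Ifi27l2a), with a median of -0.01. Ifi27l2a alone of them passed when a library was left out, shControl replicate 2. Within 300 kb of the start of Ifitm3, 14 tested genes other than members ranged from -0.44 (Lrrc56) to 0.38 (Pgghg), with 0 called by edgeR or DESeq2 and 0 at an unadjusted p under 0.05. B4galnt4, the nearest tested gene on the side away from Ifitm1, had its start 50.3 kb from that of Ifitm3 and stood at 0.03 (edgeR adjusted p = 0.977). Mvb12a, whose lowest coordinate lies 8.67 kb from that of Bst2, had -0.46 (edgeR adjusted p = 0.299). Plvap, on the other side of Bst2, had -0.62 (edgeR adjusted p = 0.717). Beside Rtp4, Masp1 and Sst had -0.17 and -0.00. Ddx24, whose lowest coordinate lies 26.2 kb from that of Ifi27, had 0.16.

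**Figure D5:**
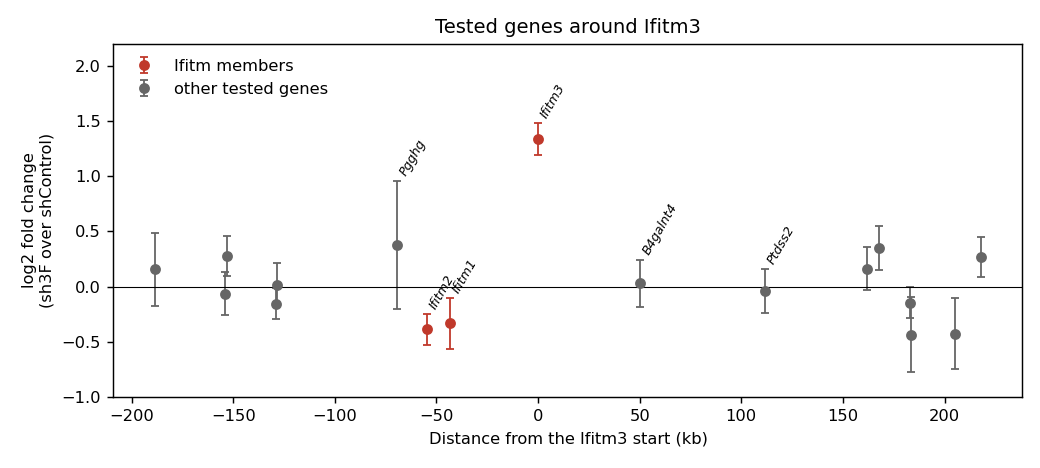
Log2 fold change of sh3F over shControl, with SE bars, for the tested genes around Ifitm3, against the distance of their start from that of Ifitm3 in kb. Ifitm3 stands at 1.34, Ifitm2 and Ifitm1 at -0.39 and -0.33, and the 14 other genes between -0.44 and 0.38.

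The genes whose profile over the 4 libraries was nearest to the mean of the members were sought among the 12644 tested genes averaging 1 CPM or more, by Euclidean distance between centred log2 CPM values; these are the libraries that chose the members. Irf9 was the second nearest, at a distance of 0.242 on the log2 scale, behind A930003A15Rik, a long noncoding RNA, at 0.217. Nfkbie, an inhibitor of NF-κB, stood at 0.270, Ccnb1ip1, a meiotic recombination protein, at 0.308, and Xaf1, an interferon-induced promoter of cell death, at 0.377. The pseudogenes Gm14682 and Gm28819 followed at 0.414 and 0.430, and Irgm1 at 0.434. Of these genes, A930003A15Rik, Nfkbie, Xaf1 and Gm14682 did not pass the threshold and the others did. All were picked by their profile, so nothing is read from the calls. In shControl, A930003A15Rik, Nfkbie, Xaf1, Gm14682 and Gm28819 averaged under 1 CPM. From their own mean, Ifitm3 lay at 0.310, Bst2 at 0.890, Ifi27 at 1.41, Rtp4 at 1.91, and Ifitm1 and Ifitm2 each at 1.94. The genes above were picked for small distances, so the members' distances are not compared with theirs.

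Blood and vessel cells also express several members, and their markers are given beside these results. The 12 myeloid markers summed to between 37.5 and 43.5 CPM in sh3F and between 40.5 and 42.4 CPM in shControl; of 9 tested, edgeR and DESeq2 called 0, and at an unadjusted p under 0.05, 1 was higher (Ptprc) and 1 lower (Lyz2). Csf1r stood at 0.0533 and 0.195 CPM in sh3F and at 0 in both shControl libraries, while Ptprc stood at 12.6 and 10.5 CPM in sh3F and 5.34 and 10.1 CPM in shControl (log2 fold change 0.63, edgeR adjusted p = 0.145). Lyz2 stood at 12.7 and 9.71 CPM in sh3F and 16.5 and 14.2 CPM in shControl (-0.45, edgeR adjusted p = 0.234). Of the 9 tested, 3 had a log2 fold change above 0, and the median was -0.05. The 10 endothelial markers summed to 9.25 to 11.2 CPM in sh3F and 10.7 to 12.5 CPM in shControl, with 0 of 5 called by edgeR or DESeq2 and 1 at an unadjusted p under 0.05; Cldn5 and Tek were at 0 in shControl replicate 2 and Kdr in sh3F replicate 2. The 10 mesenchymal markers summed to 49.1 to 51.3 CPM in sh3F and 49.6 to 53.6 CPM in shControl, with 0 called by either tool and 0 at an unadjusted p under 0.05. Erythroid markers summed higher, to 37.3 to 39.2 CPM in sh3F and 24.3 to 27.2 CPM in shControl, and 1 of 4 tested rose, the embryonic globin gene Hbb-y (log2 fold change 0.63, edgeR adjusted p = 0.0399), which DESeq2 did not call and which did not pass without sh3F replicate 1 (0.41, adjusted p = 0.974) or sh3F replicate 2 (0.81, adjusted p = 0.0858); Gata1 was at 0 in both shControl libraries. At an unadjusted p under 0.05, 3 of the 4 were higher and 0 lower. Of 6 neuronal markers 2 fell, Neurod6 (-1.12, edgeR adjusted p = 7.93e-07) and Tubb3 (-0.72, edgeR adjusted p = 0.000445; 0.0657 without sh3F replicate 1 and 0.0852 without sh3F replicate 2), and the list summed to 508 to 511 CPM in sh3F and 623 to 678 CPM in shControl. All 6 stood below both shControl libraries in both sh3F libraries, 4 of them at an unadjusted p under 0.05. The part of erythroid and neuronal cells in the members' values was not tested. The mitochondrial share of counts was 26.6% and 28.5% in sh3F and 30.3% and 33.9% in shControl. Fitted without mitochondrial genes, the members' median log2 fold change was 1.91, as with them, and 74 genes were higher and 114 lower. Any other part of this share in the members' values was not tested.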

How the data were processed

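An NEBNext Ultra II RNA kit was used to make the libraries, per the labels' protocols. The authors deposited estimated counts per gene, not normalized; per the submitters' processing notes these came from Salmon, with GRCm38 and mm10 as builds. Not given in the sources used here: the Salmon version, annotation release, strand setting and summing to genes. In each library 23.1% to 25.1% of values were not whole, so the deposited estimated counts were rounded. Of 34866 identifiers, 34652 matched GENCODE M21 without version. R 4.3.3 with edgeR 4.0.16 was used: TMM factors (1.05 and 1.01 in sh3F, 1.04 and 0.907 in shControl), filterByExpr with a minimum count of 10, a robust fit, a two-sided quasi-likelihood F test and Benjamini-Hochberg adjustment over 14050 genes. CPM use the TMM-scaled library size; SE is the log2 fold change divided by the square root of F. Log2 CPM for profiles used a prior count of 2. Scripts were tested on simulated data. Floors are 3 counts and cover counting error only. DESeq2 1.42.0, other filters, library size scaling, mitochondrial genes left out, motifs on the sense strand alone, Ifitm1 to Ifitm3 summed before the fit, a replicate block and leaving out each library were the alternatives.

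The members and gene lists were chosen with earlier results of these data known. Named by rule were the members, the tested relatives, the nearest tested neighbours, up to 4 called genes of each pathway list in order of p, and in lists with none the 3 most abundant, the targeted genes, up to 3 markers of each cell type, and the 8 genes nearest to the members' mean profile. Oas1b, Zmpste24, Trim21, Ifi44, Irf7, Irf2bp1, Bcl6, Lrrc56 and the markers at 0 were named after their values were seen.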

Additional observations from a re-analysis of the deposited data

How the results depend on the processing

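Each member's log2 fold change had the same sign under 10 alternatives of scaling, tool, filter, block and libraries, within 2.46 to 2.56 for Bst2, 2.78 to 3.93 for Rtp4, 2.95 to 3.07 for Ifi27, 1.21 to 1.47 for Ifitm3, -0.48 to -0.29 for Ifitm2 and -0.57 to -0.13 for Ifitm1. With Ifitm1, Ifitm2 and Ifitm3 summed into 1 feature, the value was 0.35, of the opposite sign to Ifitm1 (-0.33) and Ifitm2 (-0.39) and below Ifitm3 (1.34). The count of genes past the threshold moved more: library size scaling gave 77 higher and 28 lower, and DESeq2 gave 30 higher and 39 lower. Leaving out 1 library gave 27 (without sh3F replicate 1) to 280 (without shControl replicate 2) higher and 17 to 334 lower. Pathway-list genes called higher numbered 4 to 9 when a library was left out, against 7 in all 4 libraries, and those called lower 0 to 1. The 1 was Irf2bp1, at -0.97 without shControl replicate 2. Neighbours called numbered 0 to 1. Isg15, Irf9 and Usp18 passed the threshold in all 10 of those alternatives, Mx2 in 9, Gbp3 and Irgm1 in 8 and Oas1b in 6; of the markers, Neurod6 passed in 10, Tubb3 in 7 and Hbb-y in 5. The cause was not tested. With the replicate number as a block, 75 genes were higher and 97 lower and the members' median stayed at 1.91; same-numbered libraries did not deviate together (r = -0.0324), so the numbers are not read as pairs. On the sense strand alone the ISRE core was in 3 of the 4 member windows and in 573 of all windows (1.74%). Counts of a few reads limit Usp18 in shControl and all interferon ligands.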

Other observations

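The exact letters of the ISRE matches in the members' promoters were looked up in all windows after the values had been seen. GAAACCGAAA, the second match of Ifitm3, occurred in 18 of 32851 windows (0.0548%). Of 11 tested genes other than members with these letters, 2 rose, Isg15 and Irgm1, and 0 fell, with 2 higher and 2 lower at an unadjusted p under 0.05 and 1 called higher by DESeq2. GAAAAGGAAA, found in both Ifitm3 and Ifitm2, occurred in 147 windows (0.447%), and of 45 tested genes with it 2 rose, Isg15 and Spp1, and 0 fell, with 4 higher and 5 lower at an unadjusted p under 0.05, 2 called higher by DESeq2 and a median log2 fold change of 0.03. Of the Bst2 matches, GAAACTGAAA occurred in 76 windows (0.231%), and of 25 tested genes 1 rose, Gbp3, and 1 fell, Nsg2 (log2 fold change -0.56, edgeR adjusted p = 0.0144). GAAAATGAAA occurred in 73 windows (0.222%), and of 22 tested genes 1 rose, Hbb-y, and 0 fell, with 5 higher and 2 lower at an unadjusted p under 0.05 and 0 called higher by DESeq2. Ddx60 and Socs1, an antiviral helicase and an inhibitor of JAK kinases, also held GAAACCGAAA, with log2 fold changes of 0.74 and 0.33 that did not pass (edgeR adjusted p = 0.617 and 0.875). The other tested holders of GAAACCGAAA did not pass either and lay on both sides of 0. They were Cflar (0.22), Ctss (0.14), Zfp994 (-0.04), Fmr1 (-0.08), Fbxo7 (-0.32), Chl1 (-0.44) and Ctso (-0.81). The median of the 11 was 0.14.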
